A study of Mus musculus with 6 samples.

Results

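The genes described here are Myc and 47 ribosome biogenesis factors: nucleolar proteins, pre-rRNA processing proteins and subunits of RNA polymerase I. They were chosen by gene symbol from a fixed list, and all 48 listed symbols had a row among the 14868 genes of the deposited table. RNA came from CD4+ T cells on a C57BL/6J background that began the culture as naïve cells, before any meeting with antigen. The WT group carried no stated mutation, and the Ikzf4-/- group lacked Ikzf4, the gene of the Ikaros-family transcription factor Eos. Both groups were driven towards the T helper 2 (Th2) state for 72 h with IL-4 at 10 ng/mL and an interferon gamma blocking antibody at 10 ug/mL. Plate-bound anti-CD3 at 5 ug/mL and anti-CD28 at 2 ug/mL supplied the stimulus in all cultures. Each genotype had 3 libraries, and the labels do not say whether these came from separate mice, so p-values measure only the spread between these libraries. Whether Ikzf4 was missing from all cells of the mouse or only some is not given, and neither are the sex and age of the mice.

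MYC is a transcription factor that pairs with MAX and binds DNA at E-boxes, of which CACGTG is the canonical form. In activated T cells it is induced by antigen receptor and cytokine signals and is known for driving growth, partly by raising the genes that build ribosomes. Ribosomes are assembled in the nucleolus: RNA polymerase I makes the pre-rRNA, small nucleolar RNPs modify it, and assembly factors cut and fold it into the 40S and 60S subunits. Many of the genes listed here are classed as MYC targets, so the question asked was whether they followed the level of Myc.

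The promoter sequences were examined for the canonical E-box, since it is the sequence through which MYC could act on these genes directly. RefSeq promoter windows (GRCm38.p6, from 250 bases before to 50 after the gene start) were found for 43 of the 47 factors, and not for Myc, Fbl, Npm1, Rrp12 and Bop1. CACGTG, a palindrome that reads the same on both strands, was present in 10 of the 43 (23.3%), against 11.6% of the 10296 genes of the deposited table with a window and 8.09% of all 27025 genes with one. Related genes, listed further below, had similar shares: 21.7% of 60 further ribosome assembly factors and 16.7% of 12 further RNA polymerase I factors. It was present in 26.7% of 15 MYC network genes and 34.8% of 23 MYC targets of other functions. Each of the 10 factors held it once. The first base of the motif lay before the gene start in 3 genes and after it in 7, at the position given for each below, where 1 is the first transcribed base and -1 the base before it. The 30 bases around each motif follow, 5′ to 3′ on the strand of the gene, with CACGTG in capitals.
Imp4, chr1:34439696-34439725, plus strand, position -121: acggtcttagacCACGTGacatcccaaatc
Nop2, chr6:125131811-125131840, plus strand, position -60: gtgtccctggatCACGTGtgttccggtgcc
Utp18, chr11:93885769-93885798, minus strand, position -20: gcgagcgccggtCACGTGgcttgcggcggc
Pes1, chr11:3963965-3963994, plus strand, position 3: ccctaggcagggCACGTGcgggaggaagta
Wdr43, chr17:71616220-71616249, plus strand, position 18: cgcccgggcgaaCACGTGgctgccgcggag
Tsr1, chr11:74898092-74898121, plus strand, position 25: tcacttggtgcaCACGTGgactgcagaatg
Ltv1, chr10:13193092-13193121, minus strand, position 29: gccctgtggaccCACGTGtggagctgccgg
Pno1, chr11:17211540-17211569, minus strand, position 38: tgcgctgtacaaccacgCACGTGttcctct
Utp20, chr10:88826765-88826794, minus strand, position 38: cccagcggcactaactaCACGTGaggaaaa
Mybbp1a, chr11:72441347-72441376, plus strand, position 41: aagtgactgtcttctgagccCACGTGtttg
The window of Mybbp1a, like those of Ncl and Nop2, ended in bases not found near the start of a GENCODE M21 transcript of its gene, so its start may differ between annotations. When the 100 bases before the start alone were read, 2 of the 43 held the motif (4.65%), against 5.46% of the genes of the deposited table. A match is a description of the sequence, and binding was not measured.

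The values are normalized read counts, that is, reads per gene divided by 1 factor per library. Undoing that factor implied between 34701390 and 40604346 reads a library, an estimate that was not used for a count test. Ikzf4 itself stood at 756, 499.6 and 483 in WT and at 25.2, 10.5 and 38.2 in Ikzf4-/- libraries, so each library matched its label. On the first principal component of all genes (40.2% of the variance) WT replicate 1 lay at -41.3, the other WT libraries at -12.5 and -5.26, and the Ikzf4-/- libraries between 11.1 and 30.8. The fold change of Myc is therefore given without it as well. All 8 CD4+ T cell markers had a row, with summed values of 104748 to 107563 in WT and 105927 to 109885 in Ikzf4-/- libraries. The 6 Th2 markers summed to 27081 to 37504 in WT and 19283 to 22975 in Ikzf4-/- libraries. The B cell markers Cd79a and Cd79b had rows, as did the myeloid marker Cd68, and summed marker values stayed at or under 96.1 for both lists. Ms4a1, Pax5, Csf1r and Lyz2 had none. Of the CD8 T cell markers 3 of 4 had rows, with sums of 385 to 682 in WT and 429 to 658 in Ikzf4-/- libraries.

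Myc (ENSMUSG00000022346, chr15:61985391-61990374 on the plus strand of GRCm38) was the only one of the 48 genes that changed by the test used here. WT replicates 1 to 3 had normalized read counts of 6834, 5242 and 5355, against 4378, 3969.9 and 4565 for Ikzf4-/- replicates 1 to 3. Every Ikzf4-/- library lay below every WT library, and WT replicate 1 was the highest of all 6. The mean went from 5811 ± 888 to 4304 ± 304 (SD, n = 3 each), which is 74.1% of WT. The log2 fold change, Ikzf4-/- over WT, was -0.42 (SE 0.09, 95% interval -0.63 to -0.22, limma adjusted p = 0.0490). A gene was called here at a limma adjusted p under 0.05, with adjustment over all 14864 genes tested. By this rule 1.2% of all genes were called lower and 0.572% higher. The call for Myc was close to the threshold and held in 2 of the 6 fits that left out 1 library. Without WT replicate 1 the log2 fold change was -0.30 and still called (adjusted p = 0.0258). The call was lost without WT replicate 2 (log2 fold change -0.49, limma adjusted p = 0.0615). It was also lost without Ikzf4-/- replicate 1 (-0.44, limma adjusted p = 0.114), 2 (-0.37, 0.162) or 3 (-0.47, 0.115). In these 4 fits the number of all genes called fell from 263 to between 20 and 111. The summed Th2 markers were also lower in each Ikzf4-/- library, and their part in the Myc result was not tested. In the authors' deposited table Myc had a log2 fold change of -0.43 with an adjusted p of 0.000147.

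None of the 47 ribosome biogenesis factors was called, at limma adjusted p-values from 0.0605 to 1.00. Their median log2 fold change was 0.02, against 0.0048 over all genes tested, and their range was -0.18 to 0.30. Fitted values were positive for 30 and negative for 17, where 48.7% of all genes tested had negative ones. At an unadjusted p under 0.05 there were 3 higher (Utp20, Pno1 and Gar1) and 1 lower (Noc2l), where 7.97% of all genes were higher and 10.1% lower by that rule. The genotypes did not overlap, with Ikzf4-/- higher, for 4 factors (Utp20, Heatr1, Pno1 and Wdr12), and with Ikzf4-/- lower for 3 (Noc4l, Noc2l and Ebna1bp2). Over all genes the values did not overlap in these directions for 11% and 12.2%, so with the values as deposited neither count stood above the share of all genes. With equal library totals or quantile normalization the count of higher members did stand above it, as given further below. In the authors' deposited table Utp20 alone of the 47 had an adjusted p under 0.05. There 2.45% of all genes with an adjusted p were higher and 3.89% lower by the same threshold.

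**Figure D1:**
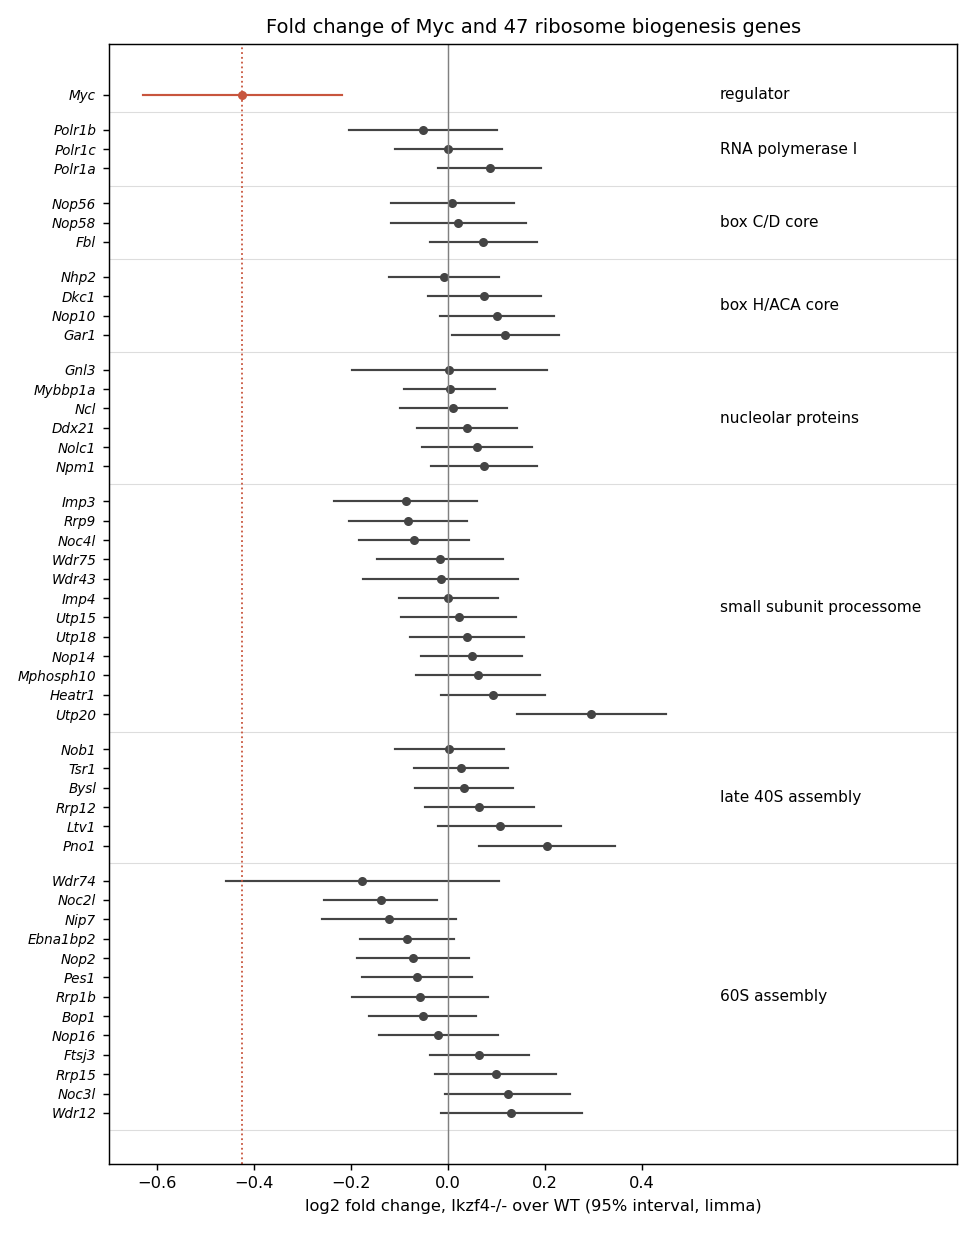
Log2 fold change (horizontal axis, Ikzf4-/- over WT) with its 95% interval from limma for Myc and the 47 factors, grouped by role and ordered by value within a role. The dotted line marks the estimate for Myc at -0.42, and Myc in red is the only gene called. The other points lie between -0.18 and 0.30.

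The 95% interval of 46 of the 47 factors lay wholly above the Myc estimate of -0.42, the exception being Wdr74, whose interval reached -0.46. For 43 of the 47 it also lay above -0.22, the upper bound for Myc. The share of all genes with such intervals was not counted. The Myc estimate lay between the 7th and 8th percentile of the fold changes of all genes, so most genes lay above it. Of 28 MYC targets outside ribosome assembly, 26 had an interval above the Myc estimate and 21 above its upper bound. These intervals are not adjusted for the number of genes. Myc and the factors were then compared directly, as the ratio of each gene to Myc within a library. The sum of the 47 factors was 61.4, 73.9 and 77.0 times the Myc value in WT replicates 1 to 3, and 94.99, 102 and 91.9 times it in Ikzf4-/- replicates 1 to 3. The means were 70.8 ± 8.27 and 96.4 ± 5.37 (SD, n = 3 each), and each Ikzf4-/- library lay above each WT library. Gene by gene, the ratio was higher in each Ikzf4-/- library than in each WT library for 46 of the 47 factors, where 64.9% of all genes had such a ratio, and it was lower in each for 0, where 0.794% did. The log2 change of the ratio had a median of 0.45 over the 47 and ran from 0.25 to 0.72. All ratios share the same 6 Myc values, so they are no independent comparisons. Myc itself did not overlap between the genotypes, so a gene with steady values and no change also gives a higher ratio in each Ikzf4-/- library. The factors had mean values of 351 to 75903, whereas all genes include many with lower means. The share among genes of similar level was not counted, so the ratio counts do not set the factors apart from other steady genes. A limma fit of the ratios called 41 of the 47 higher and 0 lower, beside 49.7% and 0.774% of all genes. That fit treated the error shared through Myc as known exactly, so its p-values are too small and its calls are given as a description only. The number called higher also rested on single libraries: it was 2 without Ikzf4-/- replicate 1 and 1 without Ikzf4-/- replicate 2, where 5.93% and 3.38% of all genes were called higher. Without Ikzf4-/- replicate 3 it was 27, where 28.1% of all genes were called higher.

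Summed over the 47 factors, the WT libraries held normalized read counts of 419720.4, 387390.2 and 412618, against 415897, 406183 and 419345 in Ikzf4-/-. The ranges overlapped, with WT replicate 2 the lowest of the 6 and WT replicate 1 the highest. The means were 406576 ± 16991 and 413808 ± 6825 (SD, n = 3 each). As a share of all normalized reads this was 1.10% ± 0.0351 in WT and 1.14% ± 0.0228 in Ikzf4-/- libraries. The values are relative to each library's total RNA, so a change shared by nearly all transcripts of a cell would not appear in them, and fewer cells making a transcript cannot be told apart from less of it per cell.

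**Figure D2:**
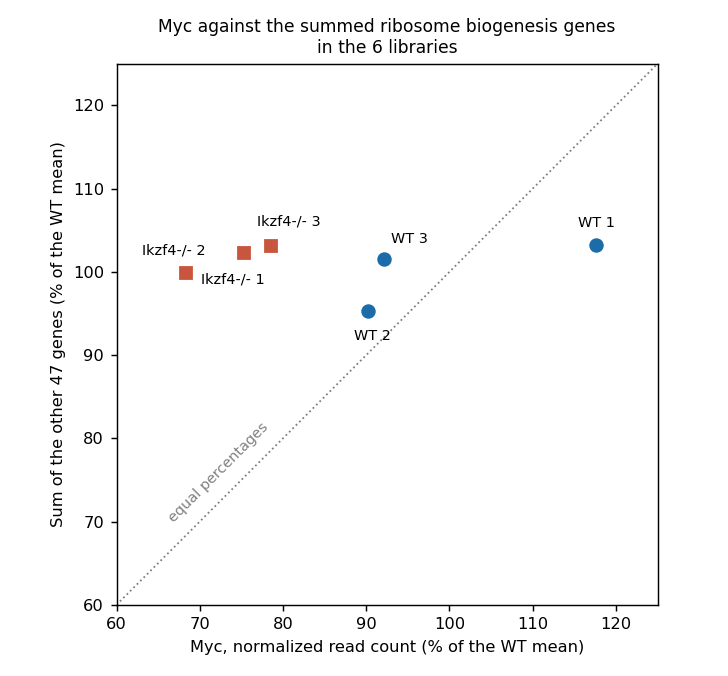
Myc (horizontal axis) against the sum of the other 47 genes (vertical axis), each in percent of its WT mean, for the 3 WT (circles) and 3 Ikzf4-/- (squares) libraries. Myc spans 68.3% to 118% while the sum spans 95.3% to 103%, and the dotted line marks equal percentages.

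Within a genotype, the order of the 3 libraries was compared between Myc and each factor. No correlation over the 6 libraries is given, because the genotypes separate Myc into 2 groups of 3. Among WT libraries Myc was highest in replicate 1, then 3, then 2, and 26 of the 47 factors stood in this order, against 16.4% of all genes tested. The share that was lowest in WT replicate 2 was 38 of 47, against 29.8% of all genes, and 27 were highest in WT replicate 1, against 38.4%. Among Ikzf4-/- libraries Myc was highest in replicate 3, then 1, then 2, and 8 of the 47 had this order, against 15% of all genes. Here 32 of 47 were lowest in Ikzf4-/- replicate 2, against 31.5%. Both orders matched in 5 factors, against 2.65% of all genes: Polr1a, Dkc1, Ncl, Ddx21 and Noc2l. Most factors thus shared the low library of each genotype with Myc. That library was replicate 2 in both genotypes, so following Myc and sharing a replicate number cannot be told apart here. The steps were small: the median factor stood at 103%, 95.6% and 101% of its WT mean in WT replicates 1 to 3, where Myc stood at 118%, 90.2% and 92.2%. In Ikzf4-/- replicates 1 to 3 the median factor stood at 104%, 101% and 102%, and Myc at 75.3%, 68.3% and 78.6%. The factors are not independent of one another, and 3 libraries per genotype allow a description only.

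**Figure D3:**
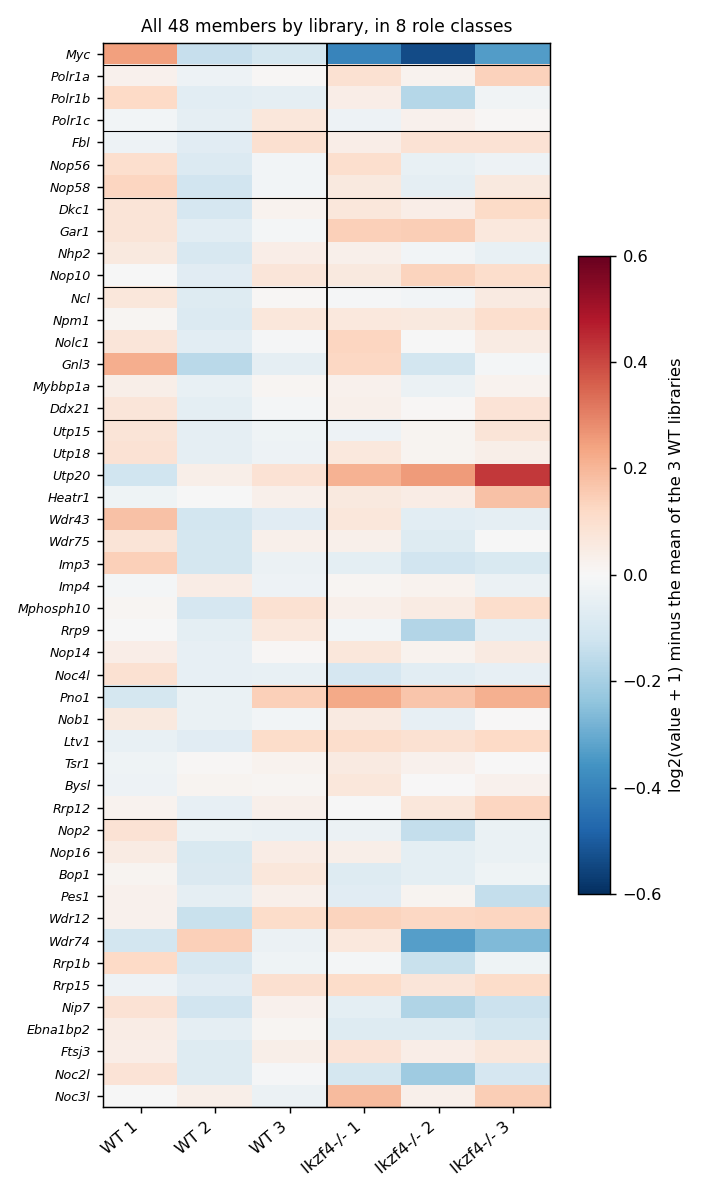
All 48 genes (rows, in 8 role classes from Myc at the top to 60S assembly at the bottom) in the 6 libraries (columns), coloured by log2(value + 1) minus the mean of the 3 WT libraries. The row of Myc is blue in all 3 Ikzf4-/- columns, the row of Utp20 is red in them, and most rows are blue in WT replicate 2.

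RNA polymerase I transcribes the rDNA, and its 3 listed subunits had log2 fold changes from -0.05 to 0.09. Polr1a, the largest subunit, was at 4332, 4157 and 4265 in WT and 4535, 4316 and 4682 in Ikzf4-/- libraries (log2 fold change 0.09, limma adjusted p = 0.389). Polr1b, the second largest, was at 3511, 3096 and 3112 against 3326, 2869.6 and 3185 (-0.05, limma adjusted p = 0.754). Polr1c, which RNA polymerase III also uses, was at 3754, 3663 and 3988 against 3717, 3871 and 3812 (limma adjusted p = 1.00). The genotypes overlapped for all 3. On the scale of normalized reads per kilobase of exon, Polr1c had the highest level of the 3, at 2815, with Polr1b at 687 and Polr1a at 475.

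The box C/D RNPs add 2′-O-methyl groups to rRNA, and their core proteins showed positive fitted changes of 0.01 to 0.07 that were not called. Fbl, the methyltransferase, stood at 13331, 12975 and 14568 in WT and 13996, 14450.5 and 14472 in Ikzf4-/- libraries, with a 95% interval for the log2 fold change of -0.04 to 0.18 (limma adjusted p = 0.495). Nop56, a scaffold protein, stood at 13504, 11909 and 12438 against 13512, 12217 and 12334 (log2 fold change 0.01, limma adjusted p = 0.960). Nop58, its partner scaffold, had a log2 fold change of 0.02. In both genotypes replicate 1 was the highest library for Nop56.

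The box H/ACA RNPs convert uridine to pseudouridine. Gar1, a core protein, was at 7778, 7059.8 and 7304 in WT and 8138, 8174 and 7694 in Ikzf4-/- libraries, so Ikzf4-/- replicate 3 fell below WT replicate 1. Its log2 fold change was 0.12, with a 95% interval of 0.01 to 0.23 and a limma adjusted p of 0.247. Nhp2 was at 10007, 8980.0 and 9884 against 9825, 9519 and 9324 (-0.01, limma adjusted p = 0.952). Dkc1, the pseudouridine synthase, and Nop10 had log2 fold changes of 0.07 and 0.10. Per kilobase, Nhp2 was the highest of the 4 at 9203.

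Among the abundant nucleolar proteins, none of the 6 fitted changes was negative, where 48.7% of all genes were, and all were at most 0.07. Npm1, a histone and ribosome chaperone, had the highest level per kilobase of the 48 genes, at 35181. It was at 70161, 65767 and 73035 in WT and 72768, 72448 and 74541 in Ikzf4-/- libraries, with a log2 fold change of 0.07 (95% interval -0.03 to 0.18, limma adjusted p = 0.475), and of 0.0046 with GC content and length adjusted for. Ncl, nucleolin, was at 79331, 71717 and 75884 against 75221, 74771 and 78494 (0.01, limma adjusted p = 0.939). Both are classic MYC-responsive genes, and for neither did the interval reach the fold change of Myc. Gnl3, nucleostemin, spread more widely within genotypes, at 4782, 3678 and 3959.7 against 4491, 3813 and 4086, with replicate 1 the highest in both (0.0023, limma adjusted p = 0.994). Nolc1, Ddx21 and Mybbp1a had log2 fold changes of 0.06, 0.04 and 0.0030.

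**Figure D4:**
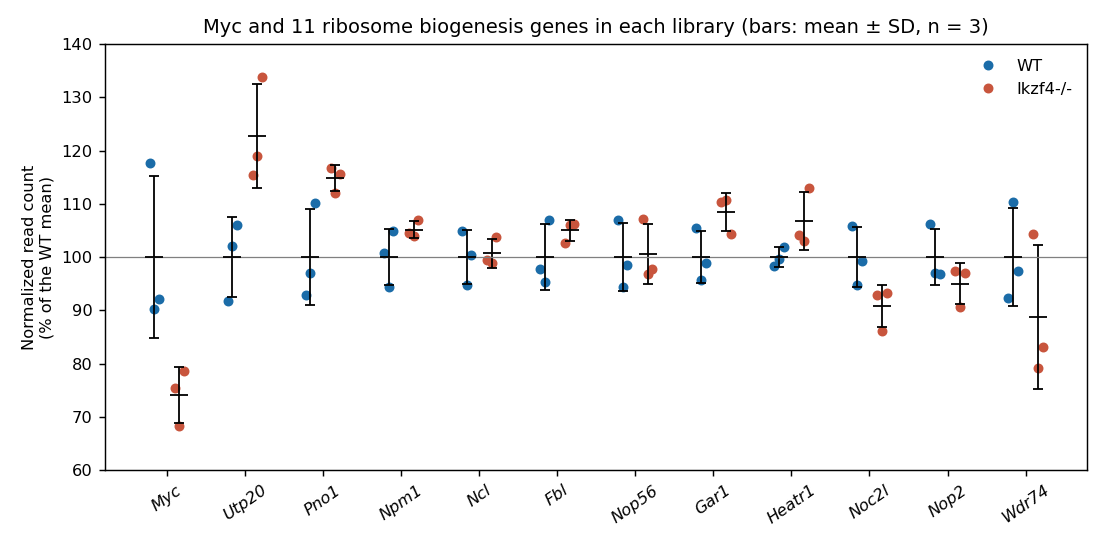
Normalized read count in percent of the WT mean (vertical axis, which starts at 60%) for Myc and 11 factors in each WT (blue) and Ikzf4-/- (red) library, with mean ± SD. Myc averages 74.1% of WT in Ikzf4-/- libraries and Utp20 averages 123%, while Npm1, Ncl, Fbl and Nop56 lie between 101% and 105%.

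The small subunit processome is the U3-containing particle that makes the early cuts in pre-rRNA on the way to the 40S subunit. Of its 12 listed genes, 6 had positive and 6 negative fitted changes. Utp20, a large scaffold of HEAT repeats (ENSMUSG00000004356, chr10:88746607-88826804 on the minus strand of GRCm38), was the furthest of the 47 factors from no change. It was at 3889.8, 4332 and 4499 in WT and 4892, 5046 and 5674 in Ikzf4-/- libraries, without overlap. The means were 4240.3 ± 315 and 5204 ± 414 (SD, n = 3 each), 123% of WT. The log2 fold change was 0.30 (SE 0.07, 95% interval 0.14 to 0.45), just short of a call (limma adjusted p = 0.0605). It was called with the replicate number as a block (0.0104), with library weights (0.0381), without WT replicate 3 (0.0367) and in the authors' deposited table (0.00311). With GC content and transcript length adjusted for within each library, it was not called (limma log2 fold change 0.26, adjusted p = 0.109). Its longest transcript measures 8.82 kb, against a median of 3.00 kb over the 48 genes. Those of Wdr12 (10.0 kb), Nop58 (9.51 kb) and Polr1a (9.22 kb) are longer, with log2 fold changes of 0.13, 0.02 and 0.09. Length was not tested apart from GC content.

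Heatr1, another HEAT-repeat protein, was at 5925, 6009 and 6145 in WT and 6279.7, 6208 and 6806 in Ikzf4-/- libraries, again without overlap (log2 fold change 0.09, limma adjusted p = 0.349). At the other end, Imp3, a U3 protein, was at 2507, 2109 and 2219 against 2183, 2097 and 2136 (-0.09, limma adjusted p = 0.539). WT replicates 1 and 3 lay above every Ikzf4-/- library, and WT replicate 2 lay within their range. Rrp9, which binds the U3 RNA and had the highest level per kilobase of this class at 3015, was at 4905, 4717 and 5131 against 4854, 4355 and 4729.8 (-0.08, limma adjusted p = 0.474), and had a log2 fold change of 0.0058 with GC content and length adjusted for. Noc4l was lower in each Ikzf4-/- library, at 5039.5, 4570.0 and 4584 against 4402, 4529 and 4565 (-0.07, limma adjusted p = 0.513), with the nearest values of the genotypes almost touching.

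Of the 6 late 40S assembly factors all had positive fitted changes, with a median of 0.05, and none was called. Over all genes 48.7% of fitted changes were negative. Pno1, a partner of the nuclease Nob1 in the final cut of 18S rRNA, was at 3005, 3142 and 3566 in WT and 3782, 3629.6 and 3744 in Ikzf4-/- libraries, without overlap. Its log2 fold change was 0.20 (95% interval 0.06 to 0.34, limma adjusted p = 0.128), and it was called in 1 of the 6 fits that left out a library, without WT replicate 3 (0.0261). With GC content and length adjusted for, its log2 fold change was 0.13. Exons of Pno1 share 33 of 1717 bases with a gene on the other strand. Nob1 was at 3606, 3366 and 3421 against 3597, 3346 and 3463 (0.0019, limma adjusted p = 0.991). Ltv1, Rrp12, Bysl and Tsr1 lay between 0.03 and 0.11.

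The 60S assembly factors held the most negative values. Of 13 genes, 9 had negative fitted changes, where 48.7% of all genes did. The median was -0.06 and none was called. Noc2l, a nucleolar transport factor (chr4:156236010-156247616 on the plus strand of GRCm38), was at 11922, 10667 and 11183 in WT and 10455, 9702 and 10489 in Ikzf4-/- libraries, all 3 below the lowest WT value. Its log2 fold change was -0.14 (95% interval -0.26 to -0.02, limma adjusted p = 0.196). It was -0.07 with GC content and length adjusted for (limma adjusted p = 0.532). The exons of Noc2l share 598 of 2867 bases with Samd11 on the other strand, and whether reads were counted by strand is not given. Ebna1bp2 was at 7192, 6725 and 7043 against 6621, 6622 and 6499, again without overlap (-0.09, limma adjusted p = 0.335). Wdr74 had the lowest read count of the factors, at 343, 409.7 and 362 against 387, 294 and 308, and had the widest interval (log2 fold change -0.18, limma adjusted p = 0.512). Wdr12, the lowest per kilobase of the 48 genes at 192 and a member of the PeBoW complex with Pes1 and Bop1, was at 1978, 1771 and 2099 against 2133, 2122 and 2128 (0.13, limma adjusted p = 0.332). Its partners Pes1 and Bop1 had fitted changes of -0.07 and -0.05, so the 3 subunits did not share a direction and none was called.

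Several features beyond function were read from the annotation. Of the 48 genes, 7 hold snoRNA or scaRNA genes on their own strand, 21 such genes in all, among them Nop56 with 5 and Nop58 with 4. Exons of 19 genes overlap exons of a gene on the other strand, in Tsr1 over 1240 of 3837 bases and in Bysl over 361 of 3854. The 10 factors with CACGTG in the promoter window had a median log2 fold change of 0.01 (range -0.07 to 0.30), and the 33 without it 0.01 (range -0.18 to 0.13). Fitted changes were positive for 6 of the 10 and for 21 of the 33. Utp20 and Pno1, the factors with the highest fold changes, both held the motif at position 38. These genes were picked by their fold changes, and a link to the motif was not tested.

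Further genes of the pathway were taken from lists chosen by function. Of 15 genes of the MYC network none was called, with a median of -0.07. Fitted changes were negative for 11 and positive for 4, where 48.7% of all genes had negative ones. Max, the partner of MYC, was at 6283, 5690.4 and 6265 in WT and 5364, 6149.5 and 5829.8 in Ikzf4-/- libraries (log2 fold change -0.07, limma adjusted p = 0.577). Of 12 further RNA polymerase I factors none was called (median 0.03, limma adjusted p-values from 0.344). Of 72 further ribosome assembly factors 0 were called lower and 1 higher, with a median of 0.02. That gene was Mdn1, a very large ATPase that remodels the pre-60S particle, at 4853, 4708 and 5322 in WT and 6042, 5954 and 7441 in Ikzf4-/- libraries (limma adjusted p = 0.0474, log2 fold change 0.38, SE 0.08). Its longest transcript measures 18.0 kb. With GC content and length adjusted for, its log2 fold change was 0.29 and not called (limma adjusted p = 0.106), in a fit that called 165 of all genes in place of 263. The call held in 1 of the 6 fits without 1 library, that without WT replicate 3.

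Of 28 MYC targets with other functions, 2 were called lower and 0 higher, with a median of -0.04, where 1.2% of all genes were called lower and 0.572% higher. Ldha, the lactate dehydrogenase of glycolysis, fell from 151746, 143922 and 141024 in WT to 111346, 123208 and 106955 in Ikzf4-/- libraries, with no overlap. Its log2 fold change was -0.36 (SE 0.06, limma adjusted p = 0.0246), and -0.20 with quantile normalization, still called (0.0364). Eif4ebp1, which encodes an inhibitor of cap-dependent translation, fell from 2014, 1598 and 1652 to 1218, 1403 and 1223 (log2 fold change -0.45, SE 0.09, limma adjusted p = 0.0436). For neither Ldha nor Eif4ebp1 did the call depend on the GC content and length trend. Ldha was called in 3 of the 6 fits that left out a library and Eif4ebp1 in 2. Both lost the call without WT replicate 2, Ikzf4-/- replicate 1 or Ikzf4-/- replicate 3, and Eif4ebp1 also without Ikzf4-/- replicate 2.

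**Figure D5:**
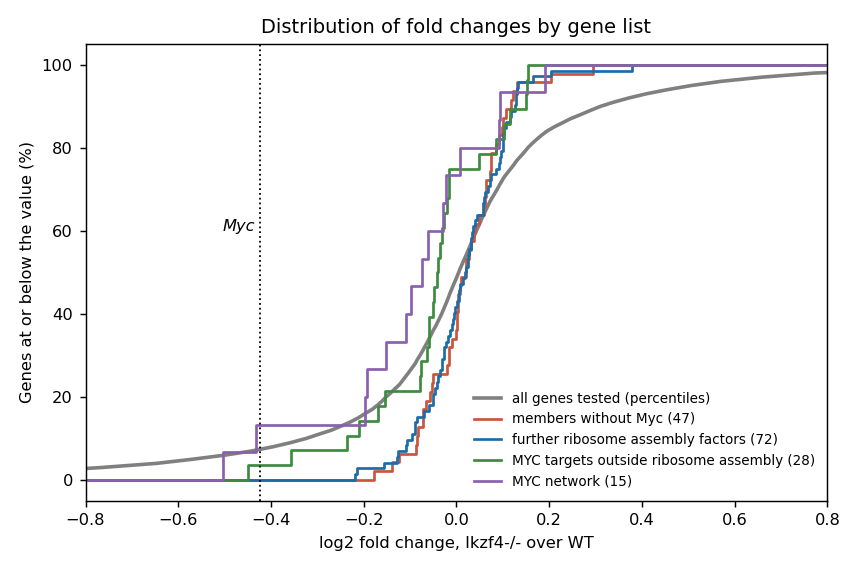
Share of genes (vertical axis) at or below each log2 fold change (horizontal axis, Ikzf4-/- over WT) for all 14864 genes tested and for 4 lists, with the number of genes in brackets. The 47 factors and the 72 further assembly factors rise steeply around 0, with medians of 0.02, to the right of Myc (dotted line, -0.42).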

How the data were processed

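RNA-seq of 3 WT and 3 Ikzf4-/- libraries was used, grouped and numbered by the labels. Trimmomatic 0.36, STAR 2.5.2b, DESeq2 and the builds GRCm38 and mm10 are named in the submitters' processing notes; the counting tool, its use of strand and the annotation are not given in the sources used here. The deposited signal columns were read as normalized read counts, since 100% of values were whole multiples (within 0.1) of a constant specific to the library. The authors' log2 fold changes, p-values and adjusted p-values stood in the same deposited table. No column of another sample was present.

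The steps of 2 libraries lay too near 1 to be accepted as recovered reads, so no count test was run. Values were fitted as log2(value + 1) with limma 3.58.1 (R 4.3.3, variance trend, genotype only) on the 14864 genes with a mean of at least 10, with two-sided Benjamini-Hochberg adjusted p-values over all of them. The scale understates changes of low genes. The ratio fit subtracted the log2 value of Myc in each library before the same model; the overlap of these ratios was added after the data were seen. Positions, lengths and GC content came from GENCODE M21 (GRCm38), with length as the union of exons of basic transcripts, and promoters from RefSeq.

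The members and lists were chosen with earlier results of these data known. Named genes were Myc, called members, and in each role the highest per kilobase and both extremes of fold change, with called list genes and Max. Heatr1, Ncl, Noc4l, Ebna1bp2 and other members outside this rule were named after their values were seen. Of the list genes Utp25 and Riok2 had no row. On the implied reads, which were not accepted for a count test, replicates of a genotype differed by more than sampling noise (chi-square over degrees of freedom of at least 7.47). Alternatives covered scaling, filter, pseudocount (0.1 and 10), replicate block, library weights, GC content and length (splines with 5 degrees of freedom), leaving out each library, and the authors' deposited table.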

Additional observations from a re-analysis of the deposited data

How the results depend on the processing

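Of 17 alternatives, Myc kept its direction in each and its call in 10. It lost the call with equal library totals (log2 fold change -0.40, limma adjusted p = 0.0518), a pseudocount of 0.1 (-0.42, 0.0515) and the GC content and length trend removed (-0.40, 0.0777), where 0 members were called lower. Leaving out 1 library gave -0.49 to -0.30 (limma adjusted p 0.0258 to 0.162). These fits called 0 to 1 members lower (0.0942% to 2.25% of all genes) and 0 to 2 higher (0.0404% to 1.27%). The deviations of same-numbered libraries correlated at 0.145, 0.0122 and 0.142, which was not taken as pairing. A block for the replicate number nevertheless raised the number of all genes called from 263 to 754. With the replicate block 1 member (Utp20) was called higher, where 1.99% of all genes were, and Myc stayed called (limma adjusted p = 0.0116). The count was also 1 with library weights (1.12% of all genes) and in the authors' deposited table (2.45%).

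The median of the 47 factors was 0.0478 with equal totals, where the median of all genes moved to 0.03, and -0.0055 to 0.0585 without 1 library. The ratio to Myc was called higher for 22 members with the GC content and length trend removed (29.2% of all genes). Without 1 library it was called higher for 1 to 43 (3.38% to 50.1% of all genes). Members without overlap numbered 2 lower with that trend removed (11.3% of all genes) and 4 to 11 lower without 1 library (15.6% to 19.1% of all genes). Those higher numbered 10 with quantile normalization (11.8%), 13 with equal totals (14.3%) and 5 to 13 without 1 library (15% to 17.9%). Of the 48 members, the 10 and the 13 are larger shares than those of all genes, unlike the count in the main fit. The same holds for the 11 lower without WT replicate 2 (16.8% of all genes). The count without overlap thus depended on the scaling and on single libraries.

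Among the further lists, the replicate block and the authors' deposited table each called 1 MYC network gene higher, where 1.99% and 2.45% of all genes were. The authors' table called 1 further assembly factor lower (3.89% of all genes). Further assembly factors called higher numbered 0 with the GC content and length trend removed (0.445% of all genes). Without 1 library they numbered 0 to 1 (0.0404% to 1.27%). MYC targets of other functions called lower numbered 4 with the replicate block (3.08% of all genes) and 4 in the authors' table (3.89%). Without 1 library they numbered 0 to 2 (0.0942% to 2.25%). Those called higher numbered 1 with quantile normalization (0.646%) and 0 to 1 without 1 library (0.0404% to 1.27%). The motif count was 2 of 43 in the 100-base window (4.65%, against 5.46% of the genes of the deposited table). As a part of the full window, it could not hold more than the 10 found there. Other causes were not tested. No called value changed sign. The fold changes of 7 named genes that were not called (Polr1b, Polr1c, Nop56, Nhp2, Gnl3, Rrp9 and Nob1) took the other sign in at least 1 alternative. The authors' statistics include no ratio to Myc, and the library values beside them are those used throughout. Neither the ratio nor the overlap therefore has a separate result for the authors' table.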
